A study of Drosophila melanogaster with 2 samples.

Results

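Of the 30000 peaks called on the pooled chromatin immunoprecipitation sequencing (ChIP-seq) libraries of embryos that carry GFP-tagged B-H2, 5684 (18.9%) had their summit just upstream of a promoter that faces 1 way. The members were chosen by position alone: the summit lay 1 to 1000 bp upstream of the nearest transcription start site (TSS) of a protein-coding gene, and not between divergent TSSs of 2 genes each within 1000 bp. They were assigned to 3658 genes. The authors' optimal set under the irreproducible discovery rate (IDR, which keeps peaks whose ranking repeats across replicates) held 1442 of them, here called IDR members, and did not hold the other 4242. ChIP-seq maps where on chromatin a protein is recovered, and a summit is the highest point of a peak. The single group was B-H2-GFP embryo: whole embryos of 6 to 22 hours, mixed sexes, of a stable Drosophila melanogaster transgenic line that makes B-H2 with GFP at its C terminus, in 2 biological replicates numbered 1 and 3. There was no second genotype or treatment, and whole embryos mix all tissues, so the values average over cells that do and do not make B-H2. The labels conflict: antibody and assay entries name a B-H2 immunoprecipitation, while a free-text entry on both samples speaks of an input control, and nothing in the peak lists settles which holds. All values are given under the antibody and assay entries.

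The IDR set was exactly the 4277 pooled peaks of highest signal, so comparing IDR members with other members compares strong with weak peaks of 1 experiment. Signal is the peak height value of the authors' caller. Its median was 167 in IDR members (112 to 3978) and 47.2 in other members (24.5 to 112), which the choice of the set fixes. Of the other members, 240 overlapped an IDR peak without being one. Read depth is unknown, and intervals are exact 95% intervals that cover the counting of peaks only. The name 1-way holds as the rule states it, with limits. The nearest TSS was an internal one for many members, since 1914 (33.7%) had their summit inside the gene they were assigned to. Of all members, 723 (12.7%) had a divergent TSS at 1001 to 2000 bp, and these can include members inside their assigned gene.

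B-H2 is a homeodomain protein of the Bar pair, known in Drosophila for roles in the eye, external sense organs and neurons, and homeodomains typically bind short sites with a TAAT core. Fly promoters fall into broad kinds. Those of housekeeping genes often carry TATCGATA, the DNA replication-related element bound by DREF, whose CGATA part is also bound by the insulator protein BEAF-32, or GGTCACACT, the element bound by M1BP (motif 1 binding protein). Promoters of regulated and tissue-specific genes more often carry a TATA box, an initiator or sites of GAGA factor. In the compact fly genome many genes lie close together, either tail to head on 1 strand (tandem) or head to head (divergent).

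Sequences around summits show what the site counts below refer to. For the strongest members overall and for each of 4 sites they are the pair of highest signal among members on X, 2L, 3L, 3R and 4 whose printed window overlaps no exon. Alg3 (by its arm) and Pgk (by an exon), both described below, are therefore not among them. Each is RefSeq sequence of build dm6 from 50 bp before to 50 bp after the summit on the strand of the assigned gene, cut where it would reach the TSS, and capitals mark the site named, on either strand. The first pair are the strongest members outside any choice by site. In CG14100 (chr3L:19590570-19590670, minus strand) capitals mark CGATA read from the other strand, and in Gapdh2 (chrX:15867948-15868048, plus strand), which encodes a glycolytic dehydrogenase, none of the 4 sites is marked.
CG14100: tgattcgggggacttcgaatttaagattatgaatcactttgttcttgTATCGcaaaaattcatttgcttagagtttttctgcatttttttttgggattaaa
Gapdh2: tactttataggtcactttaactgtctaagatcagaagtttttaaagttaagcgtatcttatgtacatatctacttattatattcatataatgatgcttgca
The next pair hold TATCGATA: eEF1gamma (chr3R:29220104-29220171, plus strand), a translation elongation factor, and RpL27 (chr3R:25685052-25685131, minus strand), a protein of the large ribosomal subunit.
eEF1gamma: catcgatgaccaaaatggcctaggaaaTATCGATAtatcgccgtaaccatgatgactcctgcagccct
RpL27: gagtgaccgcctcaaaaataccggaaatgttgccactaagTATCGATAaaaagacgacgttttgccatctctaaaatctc
GGTCACACT is shown for scrib (chr3R:26536212-26536312, plus strand), an epithelial polarity scaffold, where it runs against the gene, and for Meltrin (chr3R:14697300-14697400, minus strand), an ADAM metalloprotease, where it runs with it.
scrib: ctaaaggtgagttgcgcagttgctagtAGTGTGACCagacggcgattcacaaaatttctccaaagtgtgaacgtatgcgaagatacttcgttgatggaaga
Meltrin: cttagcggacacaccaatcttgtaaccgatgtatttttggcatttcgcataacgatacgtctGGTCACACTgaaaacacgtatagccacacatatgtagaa
The Bar-type site TAATTG is shown for CG18549 (chr3R:12449110-12449210, plus strand) and for Atf3 (chrX:1275443-1275543, minus strand), a bZIP transcription factor.
CG18549: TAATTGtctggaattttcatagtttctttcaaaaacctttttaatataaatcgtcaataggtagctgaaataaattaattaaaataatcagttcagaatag
Atf3: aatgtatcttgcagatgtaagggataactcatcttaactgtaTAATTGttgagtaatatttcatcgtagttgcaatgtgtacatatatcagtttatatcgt
CAACACTG, described with the screen of short sites, is shown for RpL23A (chr3L:1668662-1668762, minus strand), another large-subunit ribosomal protein, and for Pi3K21B (chr2L:297807-297879, plus strand), a regulatory subunit of phosphoinositide 3-kinase.
RpL23A: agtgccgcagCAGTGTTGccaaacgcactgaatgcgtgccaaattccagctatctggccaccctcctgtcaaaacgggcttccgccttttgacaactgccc
Pi3K21B: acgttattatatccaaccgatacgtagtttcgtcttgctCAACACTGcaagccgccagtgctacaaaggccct

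Upstream peaks at promoters facing 1 way entered the IDR set more often than most peaks, but less often than peaks between divergent promoters. Of the members, 25.4% (interval 24.2 to 26.5) were in the IDR set, against 14.3% of all pooled peaks. Among peaks that were no member the share was 11.7%, and the odds ratio of members over these was 2.58 (interval 2.40 to 2.77, two-sided Fisher exact test, adjusted p = 1.13e-137). Between divergent TSSs, 1028 of 2161 peaks (47.6%, interval 45.4 to 49.7) were in the set, and members were below them (odds ratio 0.375, interval 0.337 to 0.416, exact test as above, adjusted p = 1.13e-76). Of the 4523 peaks with a summit 0 to 1000 bp downstream of the nearest TSS, 13.9% were in the set (odds ratio of members 2.11 with interval 1.90 to 2.34, Fisher's exact test, adjusted p = 8.35e-48). P-values were adjusted over these 3 comparisons by the Benjamini-Hochberg method. Members made up 33.7% of the whole IDR set. By chromosome arm the IDR share of members ran from 20.7% on chromosome 4 (17 of 82, interval 12.6 to 31.1) to 27.7% on 3R (341 of 1231, interval 25.2 to 30.3), and these intervals overlap.

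IDR members sat closer to the TSS. Their summit lay a median of 129.5 bp upstream (quartiles 56 and 281), against 260 bp in other members (quartiles 94 and 577). Within 150 bp of the TSS lay 781 IDR members (54.2%) and 1466 other members (34.6%), an odds ratio of 2.24 (interval 1.98 to 2.53, Fisher's exact test, p = 9.53e-39). In 100 bp bins going upstream, the share of members in the IDR set was 35.2%, 32.5%, 26.4%, 20.6% and 16.1%, and then between 14.0% and 10.4% out to 1000 bp. On the downstream side the first 100 bp held 22.6% and the next 9.19%. Beyond that the downstream share stayed between 5.62% and 14.7%. The decline was therefore spread over about 500 bp upstream and over 100 bp downstream. Members just inside the bound of 1 bp were at RpS2 (signal 248), CG11811 (159) and Sumo (143), and peaks just outside it, at the TSS itself, were at CalpA (354), mRpL18 (246) and Claspin (198), all 6 in the IDR set. At the other bound, mlt (90.5), ETHR (49.4) and unc-13-4A (39.7) lay at 1000 bp, and CG32369 (84.3), grh (46.6) and fz4 (28.6) at 1001 bp, none of them in the set. The peaks named at each distance are tied in position, are given by falling signal and are examples only. They do not measure the share in the set, which was 35.2% in the first upstream bin and 22.6% in the first downstream bin.

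**Figure D1:**
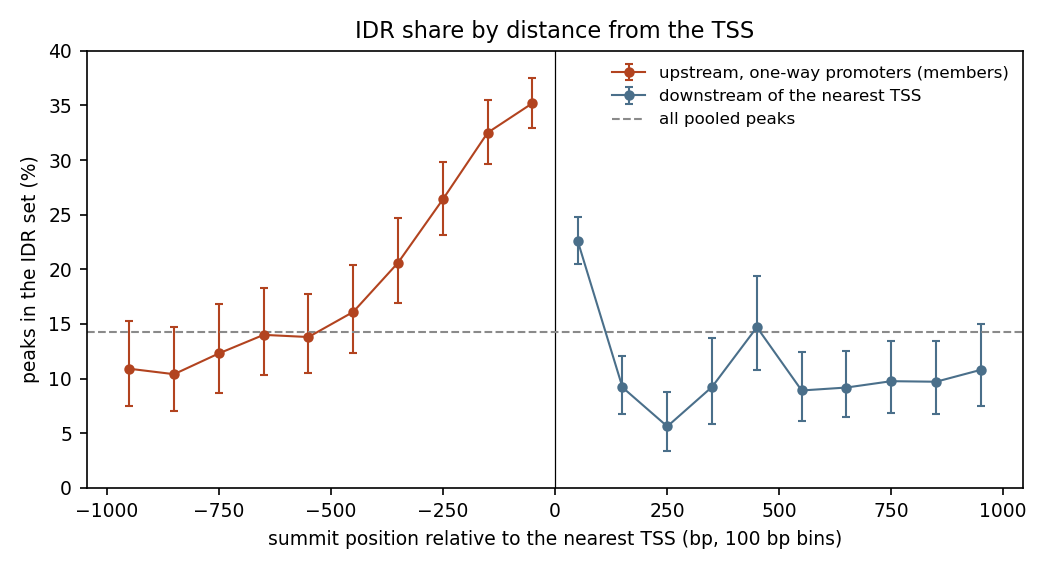
Share of peaks in the IDR set (y axis, percent, with exact 95% intervals) by the position of the summit relative to the nearest TSS (x axis, bp, 100 bp bins), for members upstream and for the downstream class, with all pooled peaks as a dashed line. The upstream share declines over about 500 bp from 35.2% in the nearest bin, while the downstream share is 22.6% in the first bin and 9.19% in the second.

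The strongest members lay at genes of varied roles. CG14100 led all 30000 pooled peaks with a signal of 3978 (3L, 19590413 to 19590833), and its matched peaks had signals of 1629.6 in replicate 1 (rank 2) and 2368 in replicate 3 (rank 1). Its summit was 96 bp upstream of the TSS and 153 bp from the upstream neighbour, ash1. Gapdh2 followed among the members with a signal of 2451 (X, 15867775 to 15868213), and with 1278 in replicate 1 and 1169 in replicate 3, rank 4 in each. From the Gapdh2 summit the upstream neighbour, Gbeta13F, was farther away, at 1823 bp. Lk6, a kinase gene related to the mammalian Mnk kinases, had 1712 pooled, 837 in replicate 1 (rank 7) and 854 in replicate 3 (rank 14). That summit lay 985 bp upstream of an internal TSS, inside Lk6. At eIF6, a factor of large ribosomal subunit assembly, the signals were 1453 pooled, 560.4 in replicate 1 (rank 21) and 905 in replicate 3 (rank 11). Ranks of these 4 members stayed within 21 in both lists.

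Alg3, an endoplasmic reticulum mannosyltransferase of N-glycan assembly, was the single one of the 20 members of highest signal with TATCGATA. It had 1332 pooled, 382 in replicate 1 (rank 59) and 947 in replicate 3 (rank 9). The junctophilin gene jp (1321 pooled) likewise ranked 49 in replicate 1 and 10 in replicate 3. The widest gap in rank among the 20 was at sp3 (1006 pooled), which ranked 161 in replicate 1 and 20 in replicate 3. Genes of nervous and regulatory function in this set were elav (1046), a neuronal RNA-binding protein, amon (1082), a prohormone convertase, the Polycomb group gene ph-p (1007) and Sox14 (929), an HMG-box factor. The elav peak (X, 523294 to 523659) had 498 in replicate 1 (rank 28) and 544 in replicate 3 (rank 44). Others were the phosphatase gene Ptpmeg2 (1185), the wing vein gene px (1103), the translocon-associated TRAM (927), the RNA-binding protein gene larp (907), and CG1888 (1432), CG1635 (1381), CG18549 (978), CG6966 (945) and CG7737 (906). Of the 20, 11 summits were intergenic, 7 inside the assigned gene and 2, those at eIF6 and elav, inside another gene. None had a TATA box at its TSS, 10 held none of the 11 sites counted below, and 1 held TAATTG. The share of all members without any of the 11 sites was not counted, so the 10 are a description only. Their windows held 35.9% ± 8.79 GC (SD, n = 20 peaks).

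**Figure D2:**
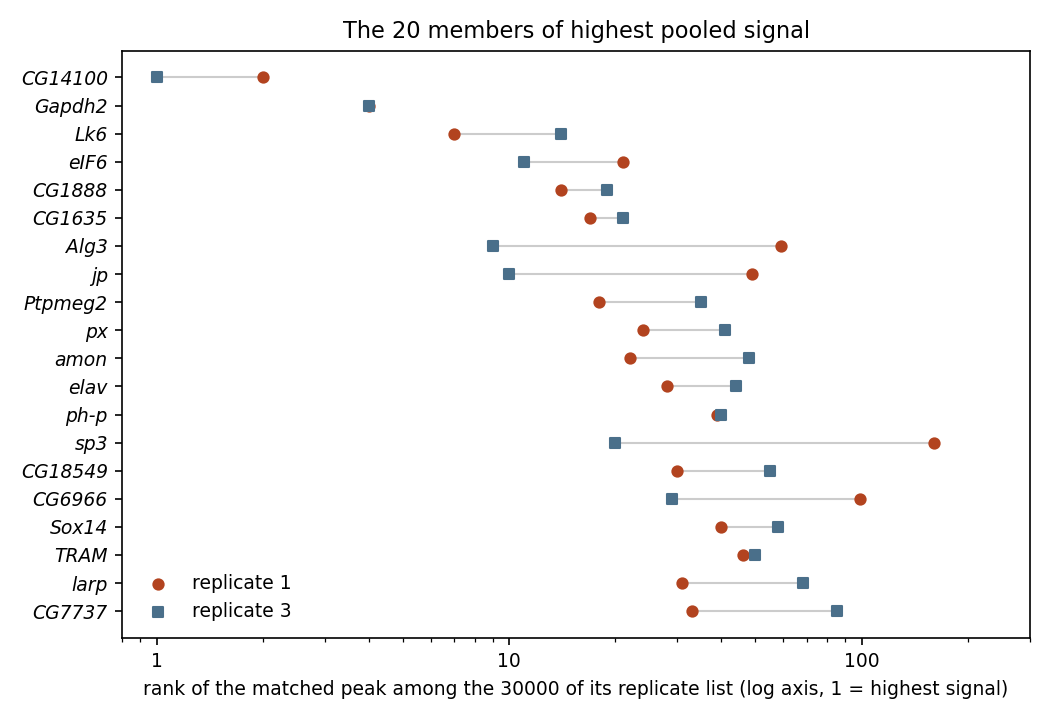
Rank of the matched peak in replicate 1 (circles) and replicate 3 (squares), on a log axis where 1 is the highest signal of 30000, for the 20 members of highest pooled signal, ordered from CG14100 down. All 20 had a match in both lists, at rank 161 or better in replicate 1 and 85 or better in replicate 3, and sp3 shows the widest gap.

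Sites of DREF, BEAF-32, M1BP and E-box proteins were more frequent in IDR members than in other members, that of GAGA factor was less frequent, and no difference passed for the Bar-type sites. The calls for M1BP, the E-box and GAGA factor were each lost in some of the alternative settings. Those for DREF (TATCGATA) and BEAF-32 (CGATA) were kept but weakened. With only IDR peaks above the median signal of the set, the odds ratios were 1.80 and 1.32 (Fisher's exact test, adjusted p = 0.0453 each). Each of 11 sites was searched on both strands of the 101 bp around the summit, and p-values were adjusted over the 11. TATCGATA lay at 77 IDR members (5.34%, interval 4.24 to 6.63) and 90 other members (2.12%, interval 1.71 to 2.60), an odds ratio of 2.60 (interval 1.88 to 3.59, Fisher's exact test, adjusted p = 2.17e-08). All pooled windows held it in 1.32%, and windows of the same length centred 100 bp upstream of all 19630 TSSs in 2.28%. CGATA, which every TATCGATA contains, lay at 26.8% of IDR members and 18% of other members (odds ratio 1.68 with interval 1.45 to 1.93, Fisher's exact test, adjusted p = 1.55e-11), with 15.3% in all pooled windows and 19.5% at all promoters. GGTCACACT was at 30 IDR members (2.08%) and 48 other members (1.13%), an odds ratio of 1.86 (interval 1.13 to 3.00, Fisher's exact test, adjusted p = 0.0265), with 0.677% in all pooled windows and 0.932% at all promoters. Its call was lost in 4 of the alternative settings, among them the strongest member per gene, where the odds ratio was 1.42 (Fisher's exact test, adjusted p = 0.289).

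Distance to the TSS moved with these shares. Within strata of 100 bp of distance the odds ratio was 1.83 for TATCGATA, 1.46 for CGATA and 1.21 for GGTCACACT. Within strata of 5 points of GC content the ratios were 2.64, 1.74 and 1.97 for the same sites. Mean GC of the windows was 40.4% ± 10.2 in IDR members and 41.7% ± 9.83 in other members (SD over peaks). The E-box CAGCTG, a site of basic helix-loop-helix proteins, was at 7.98% of IDR members and 5.61% of other members (odds ratio 1.46, Fisher's exact test, adjusted p = 0.00703), with 5.03% in all pooled windows and 5.50% at all promoters. It did not pass in replicate 3 alone (odds ratio 1.30), in replicate 1 alone (1.10) or with a divergent window of 2000 bp (1.34). For a replicate alone, members came from its own list, and its 4277 peaks of highest signal stood in for the IDR set. GAGAGA, a site of GAGA factor, was lower, at 4.65% of IDR members and 6.62% of other members (odds ratio 0.687, Fisher's exact test, adjusted p = 0.0171), with 4.95% in all pooled windows and 7.37% at all promoters. That call was also lost in 4 of the alternative settings.

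No homeodomain site passed at these counts, in either direction. TAATTG was at 110 IDR members (7.63%, interval 6.31 to 9.12) and 342 other members (8.06%, interval 7.26 to 8.92), an odds ratio of 0.942 (interval 0.746 to 1.18, Fisher's exact test, adjusted p = 0.816). All pooled windows held it in 8.70% and all promoters in 9.74%. TAAACG, also a Bar-type site, lay at 5.13% of IDR members and 4.97% of other members (odds ratio 1.03, interval 0.776 to 1.36), with 4.76% in all pooled windows and 4.70% at all promoters. TAATTA, a site many homeodomains bind, was at 5.96% and 5.16% (odds ratio 1.17, interval 0.890 to 1.51), with 6.20% in all pooled windows and 8.24% at all promoters. Within 100 bp of the summit TAATTA reached an odds ratio of 1.24 (Fisher's exact test, adjusted p = 0.0494). CACACA, the Zelda site CAGGTA and TATAAA anywhere in the window did not pass either (adjusted p from 0.154 to 0.863, Fisher's exact tests). They were at 8.81%, 1.87% and 14.5% of IDR members and at 10.4%, 2.12% and 14.7% of other members. All pooled windows held them in 11.8%, 1.86% and 13.3%, and all promoters in 8.38%, 2.31% and 16.3%. CACACA passed as lower among the stronger part of the IDR set (odds ratio 0.713, Fisher's exact test, adjusted p = 0.0453) and in replicate 1 alone (0.749, adjusted p = 0.0319). TATAAA changed sides among the stronger part of the IDR set, with an odds ratio of 1.28 (adjusted p = 0.0453, Fisher's exact test).

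**Figure D3:**
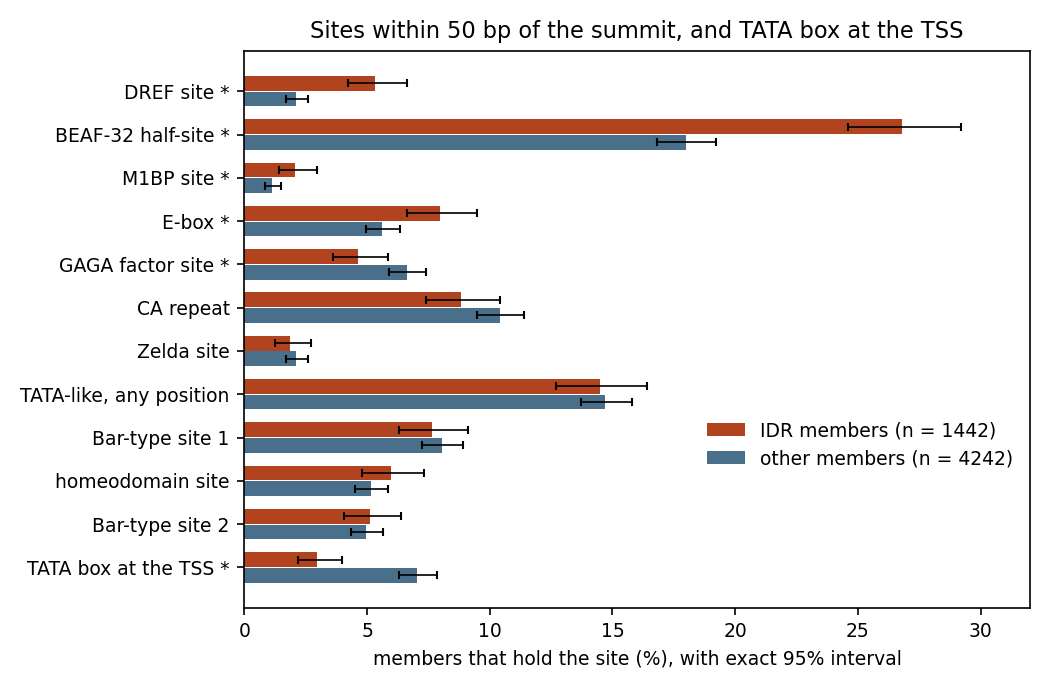
Percent of IDR members (upper bar) and other members (lower bar) that hold each of 11 sites within 50 bp of the summit, named by the factor or class it is known for, and a TATA box at the assigned TSS, with exact 95% intervals. Asterisks mark an adjusted p below 0.05: DREF, BEAF-32, M1BP and E-box sites were higher in IDR members, and GAGA factor sites and the TATA box were lower.

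TATCGATA was more frequent near the summits than farther upstream. In 20 bp bins around the summit, 1.46% of IDR members held the site in the bin just upstream of it, against 0.542% of other members. At 180 to 200 bp upstream the shares were 0.208% and 0.141%. Where the site lay within 50 bp of the summit, its centre was a median of 47.5 bp upstream of the TSS in IDR members and 48 bp in other members. GGTCACACT sites were more spread: the highest bin of IDR members, 0.902%, lay 40 to 60 bp downstream of the summit, where other members had 0.330%. GGTCACACT ran on the strand of the gene in 20 of 30 IDR members and in 32 of 48 other members, 66.7% in each (interval 47.2 to 82.7 and 51.6 to 79.6). In both sets together that was 52 of 78 (interval 55.1 to 76.9).

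**Figure D4:**
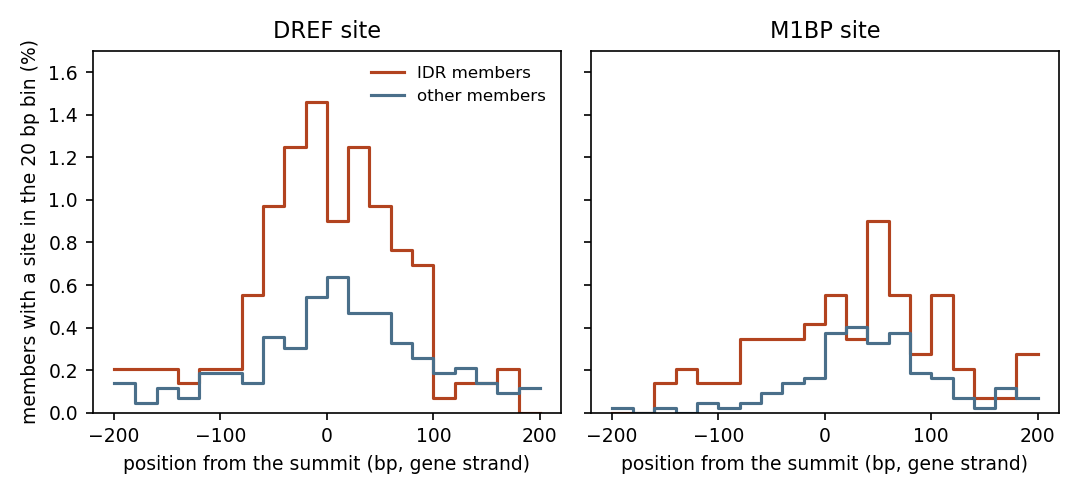
Percent of IDR members and of other members with a DREF site (left) or an M1BP site (right) in each 20 bp bin, by position from the summit on the strand of the gene (x axis, bp, positive towards the gene). The DREF site peaks within 100 bp of the summit in IDR members, up to 1.46%, and the M1BP site reaches 0.902% at 40 to 60 bp downstream.

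The contrast of TATCGATA between IDR and other peaks differed from that at divergent promoters. Between divergent TSSs the site was at 6.71% of IDR peaks and 6.71% of the others, an odds ratio of 1.00 (interval 0.703 to 1.42), against 2.60 in members. The difference between those ratios passed (Zelen's exact test of equal odds ratios, adjusted p = 0.000384 over the 11 sites). CGATA behaved alike, with 1.68 in members and 1.03 at divergent promoters (Zelen's exact test, adjusted p = 0.000384), and CAGCTG had 1.46 in members and 0.655 there (adjusted p = 0.00047). Set side by side, IDR members held TATCGATA in 5.34% and IDR peaks downstream of the TSS in 1.27% (odds ratio 4.37 with interval 2.09 to 10.5, Fisher's exact test, adjusted p = 2.84e-05). IDR members held TAATTA in 5.96% and IDR peaks between divergent TSSs in 11.4% (odds ratio 0.494 with interval 0.365 to 0.667, Fisher's exact test, adjusted p = 1.90e-05). GAGAGA was the other way round, at 4.65% of IDR members and 1.85% of IDR peaks between divergent TSSs (odds ratio 2.59, Fisher's exact test, adjusted p = 0.000735).

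A screen of all sites of 6 bases, strands joined, found 50 higher in IDR members (2.40% of those tested) and 15 lower (0.721%), adjusted over all of them. Before adjustment, 164 were higher and 146 lower at p under 0.05. CGATAG led, at 12.7% of IDR members and 4.67% of other members (odds ratio 2.97 with interval 2.39 to 3.68, Fisher's exact test, adjusted p = 1.05e-19). TATCGA (15.9% and 8.04%, odds ratio 2.16) and ATCGAT (13.1% and 6.93%, odds ratio 2.03) overlap it and TATCGATA. Next came ACACTG, at 11.9% of IDR members and 6.36% of other members (odds ratio 1.98 with interval 1.61 to 2.43, Fisher's exact test, adjusted p = 6.28e-08). AACACT (odds ratio 1.83) and CAACAC (1.81) overlap ACACTG. Within distance strata ACACTG kept an odds ratio of 1.77 and within GC strata 2.06. The lower sites were led by ATCACA, at 2.29% of IDR members and 4.93% of other members (odds ratio 0.452 with interval 0.302 to 0.659, Fisher's exact test, adjusted p = 0.00117).

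These last 3 sites join to the run CAACACTG, which was chosen after the screen was seen and is described with no test. It was found on either strand at 62 IDR members (4.30%, interval 3.31 to 5.48) and 28 other members (0.660%, interval 0.439 to 0.953). All pooled windows held it in 0.817% and all promoters in 0.846%. Of its 90 holders, at 90 genes, 68.9% were in the IDR set, against 25.4% of all members. Between divergent TSSs it was at 4.86% of IDR peaks and 1.59% of others, downstream of TSSs at 2.71% and 0.436%, and over 1000 bp from a TSS at 0.509% and 0.286%. Its centre lay a median of 48.5 bp upstream of the TSS, on the strand of the gene in 57 members and on the other in 33. Of the 90, 6 also held TATCGATA and 1 had a TATA box. The holders of highest signal were RpL23A (599 pooled, 188 in replicate 1, 419 in replicate 3), the glycolytic kinase gene Pgk (509, 243 and 263) and Pi3K21B (455, 208 and 239.6). They were followed by Phs (408), the small-subunit ribosomal protein gene RpS3A (406), the nucleotide kinase gene Cmpk (398) and the RNA-binding protein gene Unr (374).

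TATA boxes were rarer at the TSSs of IDR members. TATAAA 20 to 40 bp upstream of the assigned TSS was found at 43 IDR members (2.98%, interval 2.17 to 4) and 299 other members (7.05%, interval 6.30 to 7.86), an odds ratio of 0.405 (interval 0.286 to 0.563, Fisher's exact test, adjusted p = 8.03e-09 over 3 core promoter tests). Over all TSSs the share was 6.80%, close to that of other members. Within distance strata the odds ratio was 0.419. The ratio was 0.574 at divergent promoters and 0.667 for downstream peaks, and the difference from members passed for neither (Zelen's exact test, adjusted p = 0.413 and 0.208 over 4 tests). IDR members with a TATA box were led by MFS18 (406), bun (406), CG6770 (381) and cact (348), the fly inhibitor of the Dorsal transcription factor. The core initiator letters TCAGT within 10 bp of the TSS were at 18% of IDR members and 20.5% of other members (odds ratio 0.847, Fisher's exact test, adjusted p = 0.0535), with 13.1% over all TSSs. That difference passed with the 5'-most TSS of each gene (odds ratio 0.733, Fisher's exact test, adjusted p = 0.00224) and against other members that overlap no IDR peak (0.837, adjusted p = 0.0353).

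Summits of IDR members lay less often inside another gene and, where intergenic, more often within 1000 bp of the upstream neighbour gene. Of all members, 3062 (53.9%) were intergenic, 1914 lay inside the assigned gene and 708 (12.5%) inside another gene only. Inside another gene lay 8.11% of IDR members and 13.9% of other members (odds ratio 0.546 with interval 0.439 to 0.673, Fisher's exact test, adjusted p = 6.77e-09 over 6 features). Inside the assigned gene lay 31.5% and 34.4% (odds ratio 0.876, Fisher's exact test, adjusted p = 0.0633). Of the intergenic summits, 648 of 871 in IDR members (74.4%) and 1440 of 2191 in other members (65.7%) had a tandem gene as their upstream neighbour (odds ratio 1.52 with interval 1.27 to 1.82, Fisher's exact test, adjusted p = 5.43e-06). The upstream neighbour was within 1000 bp of the summit for 54.8% of intergenic summits in IDR members and 39.8% of those in other members (odds ratio 1.83 with interval 1.56 to 2.15, Fisher's exact test, adjusted p = 4.30e-13). Widths of the gaps between genes were not measured. All such near neighbours were tandem, because the rule removes divergent ones. Within distance strata the ratios were 1.26 for a tandem neighbour, 1.44 for a near one and 0.679 for a summit inside another gene. With the strongest member per gene only, the ratio for a summit inside the assigned gene turned to 1.48 (adjusted p = 2.42e-06, Fisher's exact test), while with a bound of 500 bp it passed in the other direction, at 0.800 (adjusted p = 0.00342, Fisher's exact test).

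Put by place, members with a tandem neighbour within 1000 bp had the highest IDR share, 35.4% (interval 32.8 to 38.0, n = 1349 peaks), and a median signal of 82.0. With a tandem neighbour farther away the share was 23.1%, with a divergent neighbour beyond 1000 bp 22.9%, inside the assigned gene 23.7% and inside another gene 16.5% (interval 13.9 to 19.5). Members with a near tandem neighbour also lay closer to the TSS, at a median of 103 bp, and held TATCGATA in 6.97%, against 0.993% inside the assigned gene. TATA boxes ran from 3.55% inside the assigned gene to 9.34% with a tandem neighbour beyond 1000 bp. A TSS of a non-coding gene lay within 1000 bp of 9.50% of IDR members and 9.05% of other members (odds ratio 1.05, Fisher's exact test, adjusted p = 0.598). Genes of tRNA, snRNA or snoRNA lay within 500 bp of 18 IDR members (1.25%) and 31 other members (0.731%, odds ratio 1.72, Fisher's exact test, adjusted p = 0.0851). With the strongest member per gene that difference passed (odds ratio 2.21, Fisher's exact test, adjusted p = 0.0448). By kind, with no test, tRNA genes were near 7 IDR members (0.485%) and 21 other members (0.495%). Those of snoRNA were near 9 (0.624%) and 7 (0.165%), and those of snRNA near 2 and 3.

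**Figure D5:**
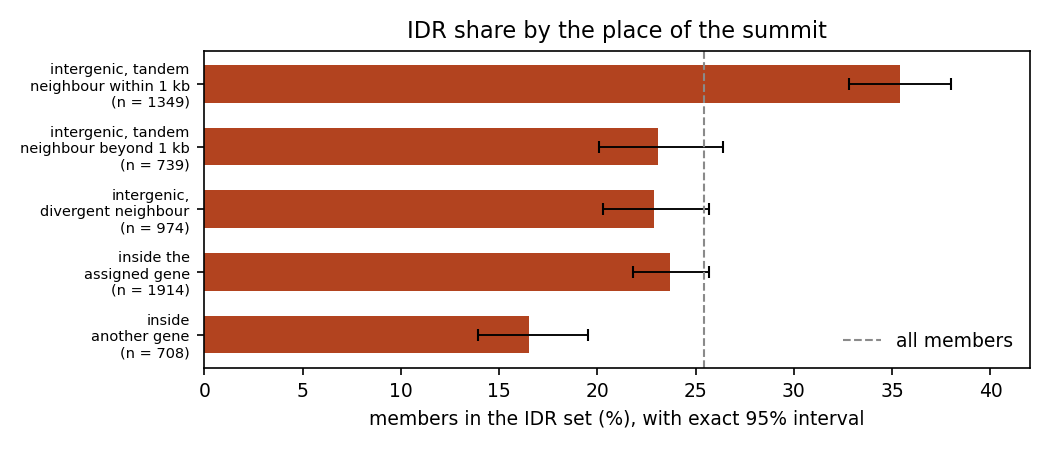
Percent of members in the IDR set, with exact 95% intervals, by where the summit lies, with the share of all members as a dashed line. Members with a tandem neighbour within 1000 bp stand at 35.4%, and summits inside another gene at 16.5%.

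Of 13968 protein-coding genes, 26.2% had a member and 8.93% an IDR member. Gene lists are described by their counts beside these shares, with no test. Of 87 genes named for proteins of the cytoplasmic ribosome, 24 had a member (27.6%) and 18 an IDR member (20.7%, interval 12.7 to 30.7). Of those 24, 75% had an IDR member, against 34.1% of all genes with a member, and their strongest members had a median signal of 307, against 80.3. RpS4 had 749 pooled, 230.2 in replicate 1 and 514 in replicate 3, with the summit 6 bp upstream of the TSS. RpL11 had 621, 219 and 397. All 3 strongest genes of this list, with RpL23A, ranked higher in replicate 3 than in replicate 1. Translation factors had 10 of 54 with an IDR member, among them eIF6, eEF1gamma (572 pooled, 136 in replicate 1, 444 in replicate 3) and eEF2 (481, 149.7 and 329.5). Glycolytic enzymes had 5 of 11 (45.5%, interval 16.7 to 76.6), led by Gapdh2, the hexokinase gene Hex-A (696, 339.5 and 351) and Pgk.

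Further lists, of housekeeping genes and of heat shock and regulatory factor genes, ran on both sides of the share of all genes. General transcription and Mediator genes had 10 of 65 (15.4%), led by the RNA polymerase II subunit gene Polr2F (442) and TfIIA-S (414). Respiratory chain and ATP synthase genes had 11 of 87 (12.6%), led by ND-B22 (338). Mitochondrial ribosomal proteins had 4 of 75 (5.33%), proteasome subunits 3 of 48 (6.25%), and aminoacyl-tRNA synthetases 1 of 33 (3.03%), at AlaRS (149.6). The vacuolar proton pump had 3 of 33 (9.09%), led by Vha68-2 (404), autophagy and vacuolar sorting genes 2 of 47 (4.26%), at Atg14 (309) and Atg8a (288), and heat shock proteins and chaperones 5 of 36 (13.9%), led by Hsp27 (236). Genes of insulator and promoter factors had 6 of 25 (24%, interval 9.36 to 45.1), among them Trl, which encodes GAGA factor (287), lola (187) and psq (168).

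Among the lists of cuticle, chemosensory, neuronal and homeobox genes, the share with an IDR member ran from 0 to 13.1%. The list drawn up for cuticle proteins had members at 24 of 125 genes and an IDR member at 1, Cpr67Fb (187), but 4 of its genes carry Acp names of the accessory gland. Without those 4, cuticle proteins had members at 23 of 121 genes, at a median signal of 39.3, and an IDR member at 1 (0.826%). Chemosensory receptors had members at 7 of 180 genes and an IDR member at none (exact upper limit 2.03%), with Or49a (107) the strongest. Neuronal and synaptic genes had a member at 21 of 42 (50%) but an IDR member at 3 (7.14%), elav, the adhesion gene Nrg (147) and Nlg2 (129). Homeobox genes had a member at 32 of 84 (38.1%) and an IDR member at 11 (13.1%, interval 6.72 to 22.2). The strongest was at Dll, a limb patterning gene (552 pooled, 253 in replicate 1, 299.9 in replicate 3), then tin, the heart regulator (231, 139 and 88.8), and eyg (213).

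Most genes had a single member. Of the 3658 genes, 2399 (65.6%) had 1, 828 had 2 and 431 had 3 or more. CG6231, SNF4Agamma, Svil, Tlk, bun, cnc and mtd had 9 each, at 6 or 7 TSSs, and most of these summits lay inside the gene. IDR members numbered 5 at larp and at Rtnl1, the most at any gene, while 1081 of the 1247 genes with an IDR member had 1. The site shares also shifted with signal among IDR members. In 4 groups of about equal size and rising signal, TATCGATA was at 4.16%, 9.72%, 4.72% and 2.77%, CGATA at 25.8%, 36.9%, 23.9% and 20.8%, and GGTCACACT at 2.77%, 3.06%, 1.94% and 0.554%. ACACTG was level, between 11.6% and 12.2%, and mean GC was 42.2%, 42.5%, 40.5% and 36.5%. The strongest group thus had the lowest GC content and the fewest DREF and M1BP sites.

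Almost every IDR member recurred in both replicates. A peak overlapped by at least 1 bp in both replicate lists for 1426 of 1442 IDR members (98.9%, interval 98.2 to 99.4) and 3049 of 4242 other members (71.9%), against 67.1% of all pooled peaks. IDR peaks outside the members were level with IDR members, at 98.8%. The pooled list contains both replicates and the IDR set its strongest peaks, so this match is largely fixed by the choice. Among the 4277 peaks of highest signal in both replicate lists were 1031 IDR members (71.5%) and 168 other members (3.96%), against 12.2% of all pooled peaks. For IDR peaks outside the members that share was 71.2%. Summits of the matched replicate peaks lay a median of 25 bp apart for IDR members and 73 bp for other members. Signals of the 1426 IDR members correlated between replicates across peaks with Spearman's rho of 0.634 and Pearson's r of 0.756 on the log10 scale, as a description, since peaks are not independent replicates and both lists share 1 control alignment.

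The IDR members that differed most in rank between replicates were mostly close to the signal bound of the set. SdhB, a subunit of succinate dehydrogenase (115 pooled), had 18.2 in replicate 1 (rank 22245) and 94.5 in replicate 3 (rank 2135). The tumour suppressor homologue p53 (201 pooled) had 27.6 in replicate 1 (rank 12486) and 176 in replicate 3 (rank 618). Dpck (130.2), bbg (114) and Tob (112) also ranked far higher in replicate 3. In the other direction, the dystrophin gene Dys (114 pooled) had 78.6 in replicate 1 (rank 2232) and 33.2 in replicate 3 (rank 11280), followed by CG7289 (121), CG34021 (113), chas (114) and CG33170 (114). A further 16 IDR members had no overlapping peak in 1 replicate, 8 in each. The strongest of them were chif (279), unmatched in replicate 1, and CG17075 (265), unmatched in replicate 3.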

How the data were processed

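ChIP-seq peak lists of 2 biological replicates of B-H2-GFP embryos were used: 1 list of 30000 peaks per replicate, 1 of 30000 peaks on the pooled replicates, and the optimal IDR set of 4277. The authors deposited them in dm6 coordinates, per the labels, with a shared control alignment. Each peak has a deposited signal value, a deposited −log10 q-value, which was not used for ranking, and a summit offset. The sources used here do not give the caller, its version or the IDR threshold. Read depth is unknown, so no precision per peak can be given.

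TSSs came from Ensembl release 115 (BDGP6.54, 13968 protein-coding genes, 19630 TSSs) and sequence from the RefSeq dm6 assembly. Each summit was assigned to the nearest TSS. Fisher's exact tests, two-sided, compared shares, with conditional odds ratios and Clopper-Pearson (exact) 95% intervals. Mantel-Haenszel ratios were taken over strata of 100 bp or 5 GC points, and Zelen's exact test, with the Breslow-Day test as another choice, compared odds ratios between classes, both added after the data were seen. Each family of tests had a Benjamini-Hochberg adjustment, at 0.05. Neighbouring peaks are not independent and can share a gene, which the p-values ignore, and spread between embryos is no part of them. The 6-base screen was tested on simulated data with planted sites.

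The members, lists and sites were chosen with earlier results of these data known. Named genes are the 20 members of highest signal, up to 3 per list, the genes with most members, 5 IDR members with the largest rank difference each way, and members at the bounds. Others named were chosen after their values were seen: IDR members with a TATA box, holders of CAACACTG and those unmatched in 1 replicate. Alternatives covered the TSS set, the bounds, the comparison set, 1 member per gene, a stricter set, each replicate alone and the site window. Each replicate alone had no IDR set, so the 4277 strongest peaks of its own list took that place. Tools were Python 3.11.15 with pandas 2.3.3, scipy 1.17.1, numpy 2.4.6, statsmodels 0.14.6 and matplotlib 3.10.9.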

Additional observations from a re-analysis of the deposited data

Results flagged for a closer look

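The contrast of IDR peaks with other peaks differed between upstream peaks at promoters facing 1 way and peaks between divergent TSSs for 3 sites and 1 core promoter element, by a test of the difference itself (Zelen's exact test). The odds ratio was 2.6 in members and 1.00 in the divergent class for TATCGATA (exact test, adjusted p = 0.000384), 1.68 and 1.03 for CGATA (exact test, adjusted p = 0.000384), and 1.46 and 0.655 for CAGCTG (exact test, adjusted p = 0.00047). For the initiator letters TCAGT at the TSS the ratio was 0.847 in members and 0.511 in the divergent class (exact test, adjusted p = 0.0444 over 4 core tests), where each peak was assigned to the nearer of 2 TSSs. Against downstream peaks no site passed, the nearest being CGATA (1.68 in members, 1.17 in the class) and TATAAA anywhere in the window (0.981 and 1.46), each with adjusted p = 0.0614 by the exact test and 0.0474 by the Breslow-Day test with Tarone's correction. The classes also differ in their IDR share, 25.4% in members, 47.6% between divergent TSSs and 13.9% downstream, so the other peaks of each class lie at different depths of the ranking. Within strata of distance to the TSS the ratio for TATCGATA in members was 1.83, and no such ratio was taken for the other classes. The part of ranking depth and of distance in these differences was not tested.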

How the results depend on the processing

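The odds ratios for the IDR share, the distance split, the TATA box, the near or tandem neighbour and a summit inside another gene kept their direction and their call in every alternative run. Their size moved. With the strongest member per gene, and other peaks cut to the strongest per gene and class, the IDR share ratio over all other pooled peaks was 1.54 (interval 1.41 to 1.67), against 2.58. Over peaks between divergent TSSs it was 0.495, against 0.375. No paired analysis was possible because there was 1 group. The number of fixed sites higher was within 1.5 times the main 4 in every setting, and the number lower, 1 in the main setting, was 0 with a divergent window of 2000 bp, with the strongest member per gene and with a site window of 100 bp, and 2 in the stronger part of the IDR set. The sites behind these numbers were not always the same. In the stronger part TATAAA (odds ratio 1.28) was called higher and GGTCACACT (1.11) was not. Without replicate 3 the lower site was CACACA (0.749) in place of GAGAGA (0.812). In the 6-base screen 30 sites were higher with the strongest member per gene, and 98 higher and 63 lower with a site window of 100 bp, against 50 and 15. Recurrence was 95.3% of IDR members and 57.2% of other members with 0.5 of the peak covered, 94.6% and 45.0% with summits within 100 bp, and 71.5% and 3.96% with the strongest peaks only.

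Odds ratios that changed sides of 1 were these, given with those for the strand of GGTCACACT, whose main ratio of 1.00 had no side. With the 5'-most TSS they were 1.09 for TAATTG, 1.16 for the strand of GGTCACACT and 0.909 for non-coding TSSs. With a bound of 500 bp they were 1.01 for TATAAA, 1.06 for TAATTG and 1.03 for the GGTCACACT strand. Against peaks that overlap no IDR peak, TATAAA was at 1.00. With the strongest member per gene they were 1.15 for CAGGTA, 1.03 for the GGTCACACT strand and 1.48 for a summit inside the assigned gene. In the stronger part of the IDR set they were 1.28 for TATAAA, 1.15 for TAATTG, 0.947 for TAAACG, 1.73 for the GGTCACACT strand and 0.980 for non-coding TSSs. With a window of 100 bp TAAACG was at 0.968. Without replicate 1 and without replicate 3, in that order, TATAAA was at 1.14 and 1.20 and TAAACG at 0.823 and 0.954. TAATTA changed sides without replicate 1 (0.992) but not without replicate 3 (1.23). The GGTCACACT strand was at 1.21 and 0.953 in these settings. Of these only the assigned gene and TATAAA in the stronger part passed. The cause was not tested. With the 5'-most TSS no summit upstream can lie inside the assigned gene, so that setting gives no value for it. Unknown read depth and few holders of GGTCACACT limit these comparisons.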
